A study of Mus musculus with 4 samples.

Results

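The 41 genes described here are cell cycle and DNA replication genes, taken by symbol from the authors' comparison table, and each had exactly 1 row among the 43430 genes counted. They were divided by role into 9 genes of G1 and of the passage from G1 to S, 14 genes of S phase and 18 genes of mitosis. All 41 passed the filter on low counts and belong to the 13281 genes tested. RNA-seq had been run on CD4+CD8+ double-positive (DP) thymocytes sorted from C57BL/6 mice. The 2 KO libraries came from Uqcrfs1fl/fl; CD4-Cre+ mice, in which floxed alleles of Uqcrfs1, the gene of the Rieske protein of respiratory complex III, are deleted by a Cre recombinase under control of Cd4 regulatory sequences. The 2 control libraries are labelled WT, while the text of the series describes the controls as heterozygous littermates, and the sources used here do not say whether they carried the Cre. Nor do they give the age and sex of the mice. Each library is a separate sample by its label, and the p-values below set the difference between groups against the spread between these samples. The sample titles do not say how many mice each library came from.

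DP thymocytes arise from CD4-CD8- double-negative (DN) cells that have assembled a T cell receptor beta chain and then divide rapidly. The large cycling DP cells leave the cycle, become small and rearrange the alpha chain locus as resting cells. D-type cyclins with CDK4 or CDK6 inactivate the retinoblastoma proteins, which frees E2F factors to switch on replication genes. Mitotic genes are held silent in resting cells by a repressor complex that binds their promoters and are switched on in G2. In RNA from a whole sorted population, fewer cycling cells and less of these transcripts per cycling cell cannot be told apart.

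Promoter sequences show what the S phase and mitotic genes share outside their expression. RefSeq promoters (build GRCm38.p6, 250 bases before to 50 after the annotated start) were at hand for 35 of the 41 genes, in 37 sequences since Mcm7 and Ccnd3 have a pair each. Those of Ccna2, Ccne2, Mcm4, Ccnd2, Tpx2 and Aurkb were not used here. Both strands were searched for the E2F words TTTGGCGC, TTTCCCGC, TTTGCCGC and TTTCGCGC, for the words TTTGAA and TTCGAA of the cell cycle genes homology region (CHR), which the repressor complex of mitotic genes binds, and for the CCAAT box. Overlapping words were counted. A CHR word was in 12 of 15 mitotic promoters (80.0%), in 3 of 14 S phase promoters (21.4%; Cdc45, Mcm2 and Mcm7) and in 0 of 8 G1 and G1/S promoters, against 19.2% of all 32851 promoters. CCAAT was in 14 of 15 mitotic (93.3%), 10 of 14 S phase (71.4%) and 3 of 8 G1 and G1/S promoters (37.5%), against 37.4% of all. An E2F word was in 5 of 14 S phase promoters (35.7%; Cdc6, Mcm3, Mcm5, Mcm6 and Mcm7), in 1 of 15 mitotic promoters (6.67%; Cdk1) and in 1 of 8 G1 and G1/S promoters (12.5%; Cdk2), against 2.26% of all. A word in this window is a match of letters and was not tested as a binding site.

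Shown here are the promoters of the S phase gene with the most counts among those with an E2F word (Mcm6, chr1:128359656-128359955, minus strand), the mitotic gene with the most counts among those with a CHR word (Mki67, chr7:135716330-135716629, minus strand) and Ube2c (chr2:164769679-164769978, plus strand), which had the lowest log2 change of the mitotic genes and was chosen for that after its values were seen. Each is written 5′ to 3′ along the gene's strand, with the words of the 3 motifs in capitals.
Mcm6: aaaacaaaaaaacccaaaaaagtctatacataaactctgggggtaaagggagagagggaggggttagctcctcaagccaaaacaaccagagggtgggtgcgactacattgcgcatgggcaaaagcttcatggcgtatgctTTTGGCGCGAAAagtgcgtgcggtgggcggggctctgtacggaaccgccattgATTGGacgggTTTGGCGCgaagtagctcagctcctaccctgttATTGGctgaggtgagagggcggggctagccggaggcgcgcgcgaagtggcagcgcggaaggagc
Mki67: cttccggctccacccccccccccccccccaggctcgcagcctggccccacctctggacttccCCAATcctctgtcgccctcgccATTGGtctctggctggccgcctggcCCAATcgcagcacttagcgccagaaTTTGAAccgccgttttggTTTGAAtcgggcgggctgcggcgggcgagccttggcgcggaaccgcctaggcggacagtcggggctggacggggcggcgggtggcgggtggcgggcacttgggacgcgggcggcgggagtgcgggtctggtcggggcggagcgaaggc
Ube2c: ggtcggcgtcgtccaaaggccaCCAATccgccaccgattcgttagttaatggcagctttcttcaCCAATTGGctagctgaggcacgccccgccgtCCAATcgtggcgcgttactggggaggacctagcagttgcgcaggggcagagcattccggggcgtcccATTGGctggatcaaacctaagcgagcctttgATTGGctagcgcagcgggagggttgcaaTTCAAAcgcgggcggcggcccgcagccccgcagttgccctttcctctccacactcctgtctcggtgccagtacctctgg
In Mcm6 the first run of capitals joins the E2F words TTTGGCGC and TTTCGCGC, the second on the opposite strand, another TTTGGCGC lies nearer to the start, and both short runs are CCAAT boxes on the opposite strand. Mki67 holds TTTGAA 2 times downstream of 3 CCAAT boxes. Ube2c holds the CHR word on the opposite strand (TTCAAA as written) and 6 CCAAT boxes, of which 2 overlap.

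Gene counts per library were 31728511 to 34080516 in KO and 30408863 to 32846323 in WT. Uqcrfs1 stood at 15.6 and 18.6 CPM (counts scaled to the library's total) in KO and at 61.4 and 57.2 CPM in WT, a log2 change of -1.80 (SE 0.09, adjusted p = 1.78e-04). Counts were per gene, so reads of a deleted exon were not separated. The 9 DP markers used, among them Cd4, Cd8a and Rag2, summed to 18425 and 18269.5 CPM in KO and to 17491 and 18711 CPM in WT. WT replicate 1 stood apart from the other libraries for the genes described here. It was the highest of the 4 libraries for 37 of the 41 genes, against 30.4% of all genes tested. In the same library 5 of the 9 DP markers were lowest (Cd4, Rag1, Rag2, Ccr9 and Themis), against 4062 of the 13281 genes tested, and 3 were highest (Cd8b1, Dntt and Cd1d1). Rag1, a recombinase gene, held the highest counts of these markers (6418 and 6595 CPM in KO replicates 1 and 2, 5477 and 6467 CPM in WT replicates 1 and 2). WT replicate 1 also had the lowest share of reads that the counting placed outside annotated exons (20.6% and 19.9% in KO, 17.2% and 18.6% in WT). The part of these differences in the results below was not tested.

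None of the 41 genes passed the threshold in the comparison of KO with WT. In edgeR's quasi-likelihood test over all genes (Benjamini-Hochberg adjusted p under 0.05), the smallest adjusted p among them was 0.497, and 0.0226% of all genes tested were called. At an unadjusted p under 0.05 there were 3 of the 41 (Tyms, Cdk6 and Cdk4), against 8.40% of all genes tested. DESeq2 called 0 of the 41, against 22 of the 20196 genes it tested, and edgeR's likelihood ratio test called 0, against 101 of 13281. None of the 41 had an adjusted p under 0.05 in the authors' deposited table (smallest 0.156), against 0.693% of the 11536 genes in it. Most of the values were nonetheless on the lower side: 35 of 41 log2 changes were below 0, against 50.1% of all genes tested, with a median of -0.088 against -9.8e-05. The KO libraries lay below both WT libraries for 7 genes, against 20.1% of all genes tested, and above both for 1 gene, against 20.4%. For the other 33 the groups overlapped.

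**Figure D1:**
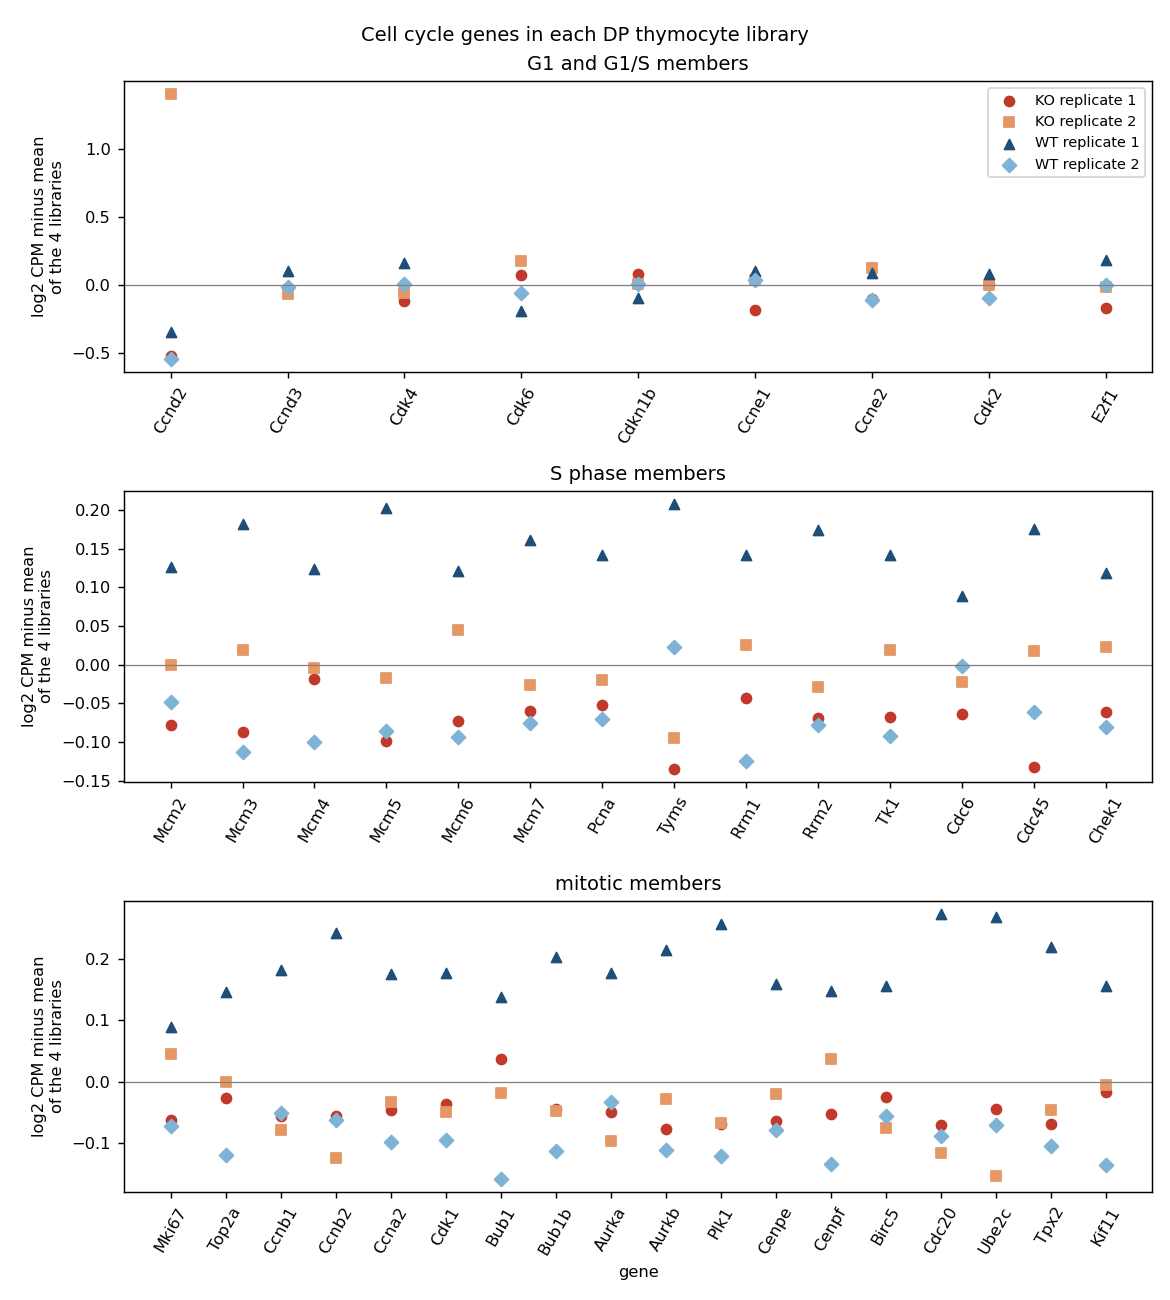
For each of the 41 genes, the log2 CPM of a library minus the mean of that gene over the 4 libraries, in panels for G1 and G1/S, S phase and mitotic genes (the vertical scales differ). The triangles of WT replicate 1 are the highest point for all 14 S phase and all 18 mitotic genes, and Ccnd2 in KO replicate 2 is the point that stands alone in the top panel.

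The G1 and G1/S genes had no common direction. Of the 9, 4 were lower and 5 higher in KO, with a median log2 change of 0.0031, and WT replicate 1 was highest for 5. In the D-type cyclin family Ccnd3, the cyclin that is required for thymocyte expansion in mice, stood at 1379 and 1339 CPM in KO and at 1508 and 1385 CPM in WT. Both KO values were below both WT values, by a log2 change of -0.090 (SE 0.05, adjusted p = 0.672), and KO replicate 1 lay next to WT replicate 2. Leaving out WT replicate 1 gave -0.032 for Ccnd3, leaving out WT replicate 2 gave -0.15. Per kilobase of annotated exonic length, which joins the exons of all transcripts and is long for Ccnd3, the mean over the 4 libraries was 56.6 CPM for Ccnd3 and 1.59 CPM for Ccnd2.

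Ccnd2, another D-type cyclin, was set apart by a single library. It stood at 5.25 and 19.9 CPM in KO replicates 1 and 2 and at 5.94 and 5.17 CPM in WT replicates 1 and 2, from 179, 630, 195 and 157 counts in that order. KO replicate 2 thus held 3.78 times the level of KO replicate 1, and counting error alone gives this ratio an exact binomial interval (95%) of 3.20 to 4.49. KO replicate 1 lay between the WT libraries. The log2 change over all 4 libraries was 1.17 with an SE of 0.81 (adjusted p = 0.747). Without KO replicate 1, when KO replicate 2 alone stands for KO and takes its spread from the WT libraries, it was 1.83 and Ccnd2 was called (adjusted p = 6.54e-06), as were 0.387% of all genes tested. Without KO replicate 2 the log2 change was -0.083. Ccnd2 (ENSMUSG00000000184) is a minus-strand gene at chr6:127125779-127151048 (mm10).

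The same KO library was high for some markers of cells outside the sort gate, and some DN markers were higher in both KO libraries. Over all genes tested, KO replicate 2 was the highest library for 3261 of 13281. Of 8 markers of mature T cells 6 were highest in KO replicate 2, and their sums were 277 and 298 CPM in KO and 271 and 268 CPM in WT. The lineage factor gene Zbtb7b stood at 1.41 and 6.90 CPM in KO and at 2.25 and 2.07 CPM in WT. Of 11 DN markers 6 were highest there, with sums of 359 and 396 CPM in KO and 342 and 332 CPM in WT. Il2ra, which encodes CD25, stood at 12.9 and 26.4 CPM in KO and at 8.50 and 10.5 CPM in WT. Notch3 stood at 82.5 and 98.4 CPM in KO and at 65.9 and 65.1 CPM in WT. Dtx1 stood at 18.4 and 25.3 CPM in KO and at 10.97 and 11.2 CPM in WT. Notch3 and Dtx1 did not pass the threshold (quasi-likelihood test, adjusted p = 0.213 and 0.124). Cd44 was also higher in both KO libraries than in either WT library. Spn, the most abundant DN marker, was lower in both, and for Kit and Nrarp the groups overlapped. Erg, Hes1, Bcl11a and Il1rl1 were below 1 CPM throughout. Myeloid markers were highest in KO replicate 2 for 6 of 10, with sums of 73.8 and 77.5 CPM in KO and 77.5 and 78.3 CPM in WT. Lyz2 stood at 0.499 and 5.36 CPM in KO and at 0.487 and 0.231 CPM in WT. Cst3, the most abundant of them, was lowest in KO replicate 2 (56.5 and 50.8 CPM in KO, 59.0 and 60.6 CPM in WT). Of 6 B cell markers 5 were highest in KO replicate 2, with sums of 29.5 and 28.1 CPM in KO and 28.9 and 25.6 CPM in WT. Erythroid markers summed to at most 0.221 CPM in KO and 0.066 CPM in WT, with Hba-a1 and Hba-a2 at 0 in every library. Stromal markers summed to 149 and 148 CPM in KO and to 155 and 160 CPM in WT, with Krt8 at 0 in every library. The part of such cells in the Ccnd2 value was not tested.

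The kinase partners of the D-type cyclins had log2 changes of opposite sign. Cdk6 stood at 35.8 and 38.4 CPM in KO and at 29.8 and 32.7 CPM in WT, so that both KO libraries were above both WT libraries, the only one of the 41 genes with that order. Its log2 change was 0.25 (SE 0.08, unadjusted p = 0.00999, adjusted p = 0.509), between 0.18 and 0.31 when each library was left out in turn. Cdk4 stood at 141 and 146 CPM in KO and at 171 and 153 CPM in WT, with both KO libraries below both WT libraries. Its log2 change was -0.17 (SE 0.06, unadjusted p = 0.0207, adjusted p = 0.546), between -0.26 and -0.096 over the left-out libraries. With no overlap between the groups, leaving out 1 library could not turn the sign of either kinase, so the kept signs add no support. Neither kinase passed the threshold. Both are plus-strand genes, Cdk6 (ENSMUSG00000040274) at chr5:3343893-3523218 and Cdk4 (ENSMUSG00000006728) at chr10:127063534-127067920 (mm10). Cdkn1b encodes p27, an inhibitor of cyclin-CDK complexes that is high in resting cells. It stood at 397 and 376 CPM in KO and at 351 and 377 CPM in WT. WT replicate 1 was the lowest library here, where it was the highest for most other genes, and the log2 change was 0.088 (SE 0.05, adjusted p = 0.683), between 0.033 (WT replicate 1 left out) and 0.14 (WT replicate 2 left out).

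Genes of the passage into S phase had small log2 changes. E2f1, an activating E2F factor, stood at 32.4 and 36.0 CPM in KO and at 41.2 and 36.3 CPM in WT, with KO below WT by a log2 change of -0.18 (SE 0.085, adjusted p = 0.618). KO replicate 2 and WT replicate 2 lay next to each other at the boundary. For E2f1 it was -0.092 when WT replicate 1 was left out and -0.28 when WT replicate 2 was. Cyclin E1 (Ccne1) stood at 36.3 and 42.5 CPM in KO and at 44.4 and 42.3 CPM in WT, and the groups overlapped (log2 change -0.14, SE 0.08). It was -0.034 without KO replicate 1 and -0.26 without KO replicate 2. Cyclin E2 (Ccne2) stood at 38.0 and 44.4 CPM in KO and at 43.4 and 37.8 CPM in WT, with 1 high and 1 low library in each group (0.018, SE 0.09). Cdk2, the kinase of the E cyclins, stood at 201 and 199.7 CPM in KO and at 212 and 188 CPM in WT, with KO between the WT libraries (0.0031, SE 0.06).

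**Figure D2:**
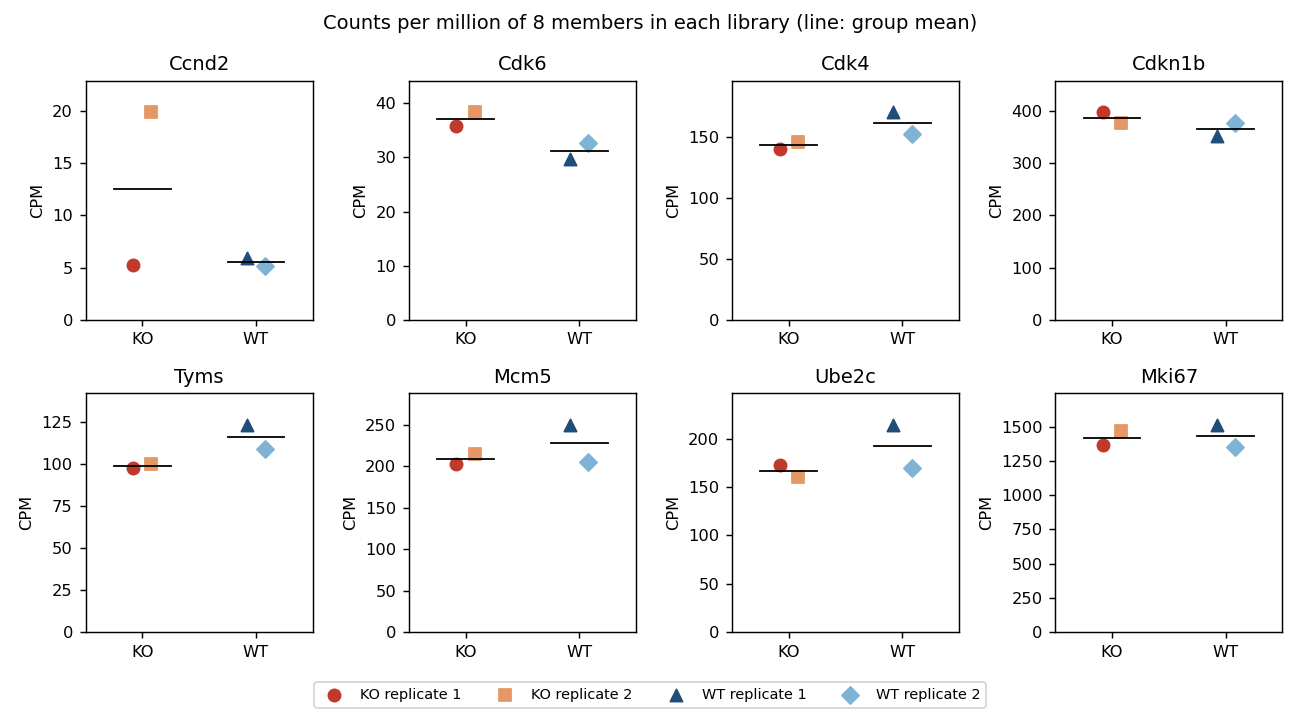
CPM of 8 genes in each library, KO left of WT, with a line at each group mean and vertical axes from 0. In both KO libraries Cdk6 lies above, and Cdk4 and Tyms lie below, every WT library, Ccnd2 is high in KO replicate 2 alone, and Mcm5, Ube2c and Mki67 are highest in WT replicate 1.

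All 14 S phase genes had lower means in KO, with log2 changes from -0.23 to -0.024 and a median of -0.078. In 14 of 14, WT replicate 1 was the highest library. The groups overlapped for 12 of 14, against 7905 of the 13281 genes tested. Tyms, the thymidylate synthase gene, came nearest to a difference between the groups. It stood at 97.5 and 100.2 CPM in KO and at 124 and 109 CPM in WT, both KO libraries below both WT libraries. The log2 change was -0.23 (SE 0.07, unadjusted p = 0.00702, adjusted p = 0.497) and stayed between -0.33 and -0.14 over the left-out libraries. With no filter on low counts Tyms was called (adjusted p = 0.0128), and so was the mitotic gene Ube2c (adjusted p = 0.0462), in a fit that called 0.911% of its 20968 genes. Tyms (ENSMUSG00000025747) is a minus-strand gene at chr5:30058202-30073617 (mm10). Cdc6, which loads the replicative helicase at origins, was the other S phase gene without overlap, at 59.0 and 60.7 CPM in KO and 65.6 and 61.6 CPM in WT (log2 change -0.087, SE 0.06). With WT replicate 1 left out it was -0.045, with WT replicate 2 left out -0.14.

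The MCM genes encode the 6 subunits of the helicase that unwinds DNA at the replication fork. Mcm5 stood at 203 and 215 CPM in KO and at 250.4 and 205 CPM in WT, Mcm3 at 189 and 204 CPM in KO and at 228 and 186 CPM in WT. Mcm2 stood at 226 and 238 CPM in KO and at 260.1 and 230.3 CPM in WT, and Mcm4 at 193 and 195 CPM in KO and at 213 and 183 CPM in WT. In all of these KO replicate 2 was above KO replicate 1 and above WT replicate 2. Mcm6 stood at 294 and 319 CPM in KO and at 336 and 290.0 CPM in WT, and Mcm7 at 277 and 283 CPM in KO and at 322 and 273 CPM in WT. The 6 log2 changes ran from -0.12 (Mcm5, SE 0.09) to -0.028 (Mcm4, SE 0.07). Without WT replicate 1 all 6 were above 0, from 0.0056 (Mcm2) to 0.084 (Mcm4).

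Of the genes of the fork and of nucleotide supply described next, all had WT replicate 1 highest and KO replicate 2 second. Pcna, the sliding clamp of DNA polymerases, stood at 306 and 313 CPM in KO and at 350 and 302 CPM in WT. Cdc45, a partner of the MCM helicase, stood at 57.9 and 64.2 CPM in KO and at 71.6 and 60.8 CPM in WT, and Chek1, a checkpoint kinase gene, at 29.0 and 30.8 CPM in KO and at 32.9 and 28.7 CPM in WT. In these 3 genes both KO libraries lay below WT replicate 1, and of their KO values only that of Cdc45 in KO replicate 1 was below WT replicate 2. The ribonucleotide reductase genes Rrm1 and Rrm2 stood at 326 and 342 CPM and at 441 and 453 CPM in KO, and at 371 and 308 CPM and at 522 and 438 CPM in WT. Tk1, a thymidine kinase gene, stood at 63.3 and 67.3 CPM in KO and at 73.3 and 62.3 CPM in WT. The log2 changes of these 6 genes ran from -0.12 (Cdc45, SE 0.09) to -0.024 (Rrm1, SE 0.08).

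By the median over the S phase and over the mitotic genes, the WT libraries differed more from each other than the groups did. Tyms was an exception among these genes. A difference of single libraries is set here against a difference of group means. WT replicate 1 exceeded WT replicate 2 by a median of 0.23 on the log2 scale over the S phase genes and 0.29 over the mitotic genes, with ranges of 0.090 to 0.29 and 0.16 to 0.38. Over genes at least as abundant as the least abundant of the 41, the median of this difference was -1.7e-04, the 75th percentile 0.083 and the 95th percentile 0.23. Counting error alone did not cover it: the exact binomial interval of the ratio lay above 1 for 14 of 14 S phase and 18 of 18 mitotic genes. Such intervals cover counting error only, since reads copied in PCR are not independent molecules. The share of all genes with such an interval was not counted. Over genes in general the WT pair also spread beyond counting error (chi-square over its degrees of freedom 9.08). Between the KO libraries, KO replicate 2 minus KO replicate 1, the medians were 0.073 for S phase and -7.4e-04 for mitotic genes, and the interval lay above 1 for 7 of 14 and 3 of 18 and below 1 for 0 of 14 and 2 of 18 (Ube2c and Ccnb2). Set against WT replicate 2 alone, KO replicate 1 was higher for 9 of 14 S phase and 16 of 18 mitotic genes (medians 0.017 and 0.036), and KO replicate 2 for 12 of 14 and 12 of 18 (medians 0.074 and 0.058). Set against WT replicate 1 alone, KO was lower for 14 of 14 and 18 of 18 in either library, with medians of -0.21 and -0.23 for KO replicate 1 and of -0.14 and -0.24 for KO replicate 2.

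Leaving out a WT library therefore set the direction. Where KO lay between the WT libraries, the sign followed from that order, so such signs add no further support. Without WT replicate 1 the median log2 change was 0.029 for S phase and 0.048 for mitotic genes, 2 of 14 and 5 of 18 were lower in KO, and 0 of the 41 were called. Without WT replicate 2 the medians were -0.18 and -0.24, 14 of 14 and 18 of 18 were lower, and 18 of the 41 were called, all lower in KO, against 2.65% of all genes tested. Those 18 were Cdk4 of the G1 genes, Tyms, Mcm5, Mcm7 and Rrm2 of the S phase genes, and 13 mitotic genes led by Cdc20 (log2 change -0.37, adjusted p = 0.00904). In both fits 1 library of WT stands alone and is assumed to vary like the KO libraries.

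**Figure D3:**
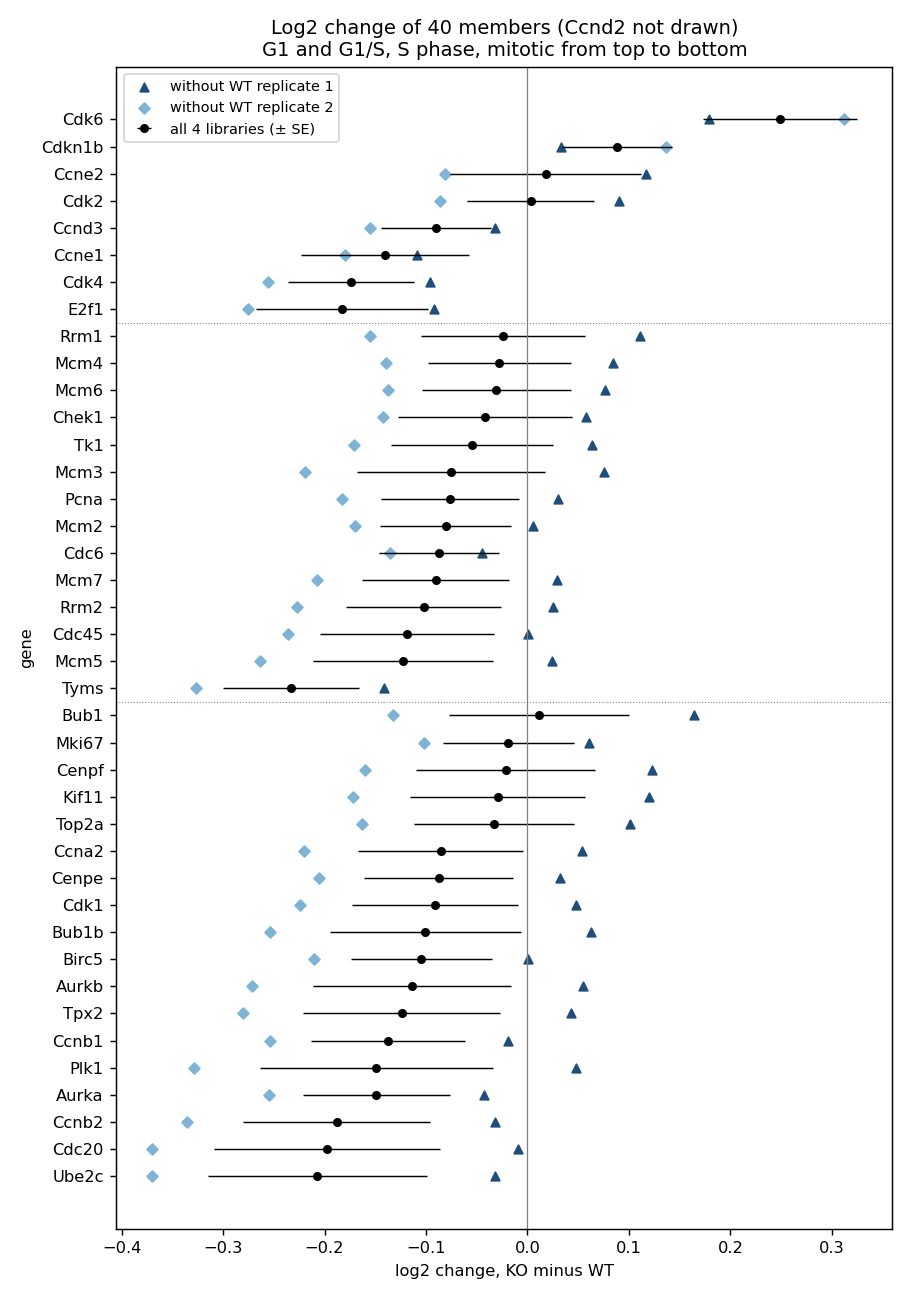
Log2 change, KO minus WT, of the 41 genes except Ccnd2, which would need a wider axis. Black points with bars are the fit to all 4 libraries with its SE, and the other symbols are fits without WT replicate 1 (triangles, mostly right of 0 for S phase and mitotic genes) or without WT replicate 2 (diamonds, left of 0 for all of them).

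For all 18 mitotic genes WT replicate 1 was the highest library, while the lowest was WT replicate 2 for 12 and KO replicate 2 for 6. In 17 of 18 the mean was lower in KO, with a median log2 change of -0.10 and a range of -0.21 to 0.011, and no gene reached an unadjusted p under 0.05 (smallest 0.0702). The highest level per kilobase of the 41, 142 CPM as the mean of the 4 libraries, was that of Mki67, the Ki-67 gene of cycling cells. It stood at 1364 and 1470.0 CPM in KO and at 1516 and 1355 CPM in WT. KO replicate 2 lay near WT replicate 1 and KO replicate 1 near WT replicate 2, and the log2 change was -0.019 (SE 0.06, adjusted p = 0.949). Top2a, the topoisomerase that untangles chromosomes, stood at 1276 and 1300.0 CPM in KO and at 1438 and 1198 CPM in WT (-0.033, SE 0.08). Kif11, a spindle motor gene, stood at 462 and 466 CPM in KO and at 521 and 426 CPM in WT (-0.029, SE 0.09). For these 3 genes the KO libraries lay between the WT libraries.

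The lowest log2 changes among the mitotic genes were those of Ube2c, Cdc20 and Ccnb2. Ube2c, the ubiquitin-conjugating enzyme of the anaphase-promoting complex, whose promoter is printed with its CHR word, stood at 173 and 160.2 CPM in KO and at 214 and 170 CPM in WT (log2 change -0.21, SE 0.11, adjusted p = 0.650). Cdc20, an activator of the complex, stood at 144 and 139 CPM in KO and at 182 and 142 CPM in WT (-0.20, SE 0.11). In both genes KO replicate 1 was above WT replicate 2 and KO replicate 2 was the lowest library. Ccnb2, a B-type cyclin gene, stood at 160.3 and 153 CPM in KO and at 197 and 159.6 CPM in WT (-0.19, SE 0.09), and Ccnb1 at 80.3 and 79.1 CPM in KO and at 94.7 and 80.6 CPM in WT (-0.14, SE 0.08). Aurka, a spindle pole kinase gene, stood at 81.0 and 78.5 CPM in KO and at 94.8 and 81.9 CPM in WT (-0.15, SE 0.07, adjusted p = 0.618). Ccnb1 and Aurka were the mitotic genes without overlap (2 of 18, against 20.1% of all genes tested with KO below WT), and their KO libraries lay close below WT replicate 2. Without WT replicate 1 the values were -0.032 for Ube2c, -0.0094 for Cdc20, -0.032 for Ccnb2, -0.020 for Ccnb1 and -0.043 for Aurka. Without WT replicate 2 they ran from -0.37 (Cdc20) to -0.25 (Ccnb1).

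Other genes of mitosis encode kinases, checkpoint proteins and parts of the spindle and kinetochore. Cdk1, the kinase that drives entry into mitosis, stood at 144 and 143 CPM in KO and at 167 and 139 CPM in WT, and its partner Ccna2 at 301 and 304 CPM in KO and at 352 and 291 CPM in WT. Plk1, another mitotic kinase gene, stood at 119 and 119 CPM in KO and at 148 and 114 CPM in WT, and Aurkb, the kinase of the chromosomal passenger complex, at 127 and 131 CPM in KO and at 155 and 123 CPM in WT. KO was above WT replicate 2 and below WT replicate 1 in all 4 genes. Birc5 (survivin), a passenger complex subunit, stood at 166 and 160 CPM in KO and at 188 and 162 CPM in WT. The spindle checkpoint genes Bub1 and Bub1b stood at 107 and 103 CPM and at 266 and 265 CPM in KO, and at 115 and 93.5 CPM and at 316 and 254 CPM in WT. Bub1 was the mitotic gene with a log2 change above 0 (0.011, SE 0.09). The kinetochore genes Cenpe and Cenpf stood at 191 and 197 CPM and at 207 and 220.3 CPM in KO, and at 223 and 189 CPM and at 238 and 196 CPM in WT. Tpx2, a spindle assembly factor gene, stood at 219 and 223 CPM in KO and at 268 and 214 CPM in WT. The log2 changes of the other 9 ran from -0.15 (Plk1, SE 0.11) to -0.022 (Cenpf, SE 0.09).

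Among the mitotic genes the log2 change was described against the annotated exonic length in the count table, which ranged from 1541 bases (Ccnb2) to 19514 bases (Cenpf). Spearman's rho between length and log2 change was 0.49 over the 18 genes, so that the shorter genes tended to have the lower log2 changes, and 0.14 over all genes tested. Exceptions were the long genes Tpx2 (17134 bases, -0.12) and Ccnb1 (10569 bases, -0.14). So were Kif11 (4819 bases, -0.029) and Bub1 (6191 bases, 0.011), which are shorter than the class median of 6716 bases. Between length and KO replicate 2 minus KO replicate 1 it was 0.70 over the 18 and 0.035 over all genes. For WT replicate 1 minus WT replicate 2 it was -0.45 and -0.12. Over the 14 S phase genes the value for the log2 change was -0.086. These are descriptions across genes that share libraries, are not independent of each other and were examined after the values had been seen.

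**Figure D4:**
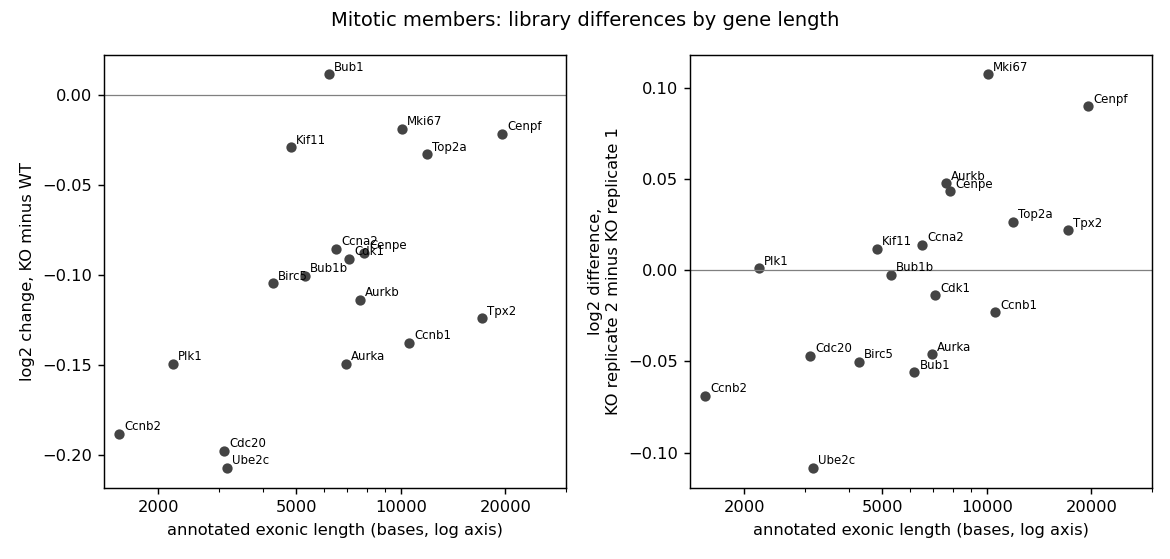
Mitotic genes by annotated exonic length (log axis), against the log2 change of KO minus WT (left) and against KO replicate 2 minus KO replicate 1 on the log2 scale (right). The short genes Ccnb2, Ube2c and Cdc20 lie low in both panels and the long genes Mki67, Top2a and Cenpf lie high. On the left, the long genes Tpx2 and Ccnb1 lie below the class median, and the shorter genes Kif11 and Bub1 lie high. On the right, the short gene Plk1 lies near 0.

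Further genes of the pathway, listed by role, were read in the same way. Over all genes tested 50.1% were lower in KO and WT replicate 1 was highest for 30.4%. Of 47 other mitotic genes, all tested, 43 were lower in KO (median log2 change -0.094) and WT replicate 1 was highest for 44. Of 49 other S phase genes, 36 were lower (median -0.065) and WT replicate 1 was highest for 38. Of 20 tested among 23 other G1 and G1/S genes, 9 were lower (median 0.029) and WT replicate 1 was highest for 7. In the test over all genes 0 of these genes were called in either direction. Of all 13281 genes tested, 532 were lower in KO at an unadjusted p under 0.05, and 8.40% passed it in either direction. At this threshold there were 2 mitotic genes (Bub3 and Spc24), 4 S phase genes (Rpa3, Pole, Rfc3 and Fen1) and 1 G1 and G1/S gene (Cdkn2d), all lower in KO. All of these but Rpa3 are named here after their values were seen. Rpa3, a subunit of the protein that coats single-stranded DNA, stood at 36.3 and 33.5 CPM in KO and at 44.1 and 39.9 CPM in WT. Both KO libraries were below both WT libraries, and the log2 change was -0.27 (SE 0.08, adjusted p = 0.497). Without WT replicate 1 the medians were 0.055, 0.033 and 0.019 for the other mitotic, S phase and G1 and G1/S genes.

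Counting limits touch some of these values. The sources used here do not give the strand setting of the counting, and 8 of the 41 genes (Ccnd3, Cdk4, Ccne2, Mcm7, Tk1, Cdc45, Ccna2 and Cdc20) overlap a tested gene on the opposite strand, so their reads cannot be told fully apart from those of the neighbour. Of genes named as pseudogene copies, those of Ccnd3, Pcna, Ccnb1 and Ccnb2 held at most 203 counts over the 4 libraries.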

How the data were processed

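RNA-seq libraries of sorted DP thymocytes (2 KO, 2 WT) were grouped and numbered by their sample titles. The deposited counts are raw counts per Ensembl gene. The submitters' processing notes name Trimmomatic 0.33, STAR 2.5.2, HTSeq, edgeR and the build mm10; per the series text, STAR did the alignment and HTSeq the counting. The count files per library and the table of the series hold the same values (0 differing cells). HTSeq's summary lines were left out; of the reads counted, ambiguous or outside exons, 17.2% to 20.6% were outside and 0.865% to 0.891% ambiguous. In the authors' deposited table, CPM values per library, log2 fold changes and mean log2 CPM, a likelihood ratio score and p-values are the authors' own, per the file headers, and the sources used here do not state their adjustment.

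Symbols came from the authors' table for the 41 genes and, by identifier, from the mm10 annotation (42462 matched). Counts were fitted with edgeR 4.0.16 (R 4.3.3): low counts removed by filterByExpr at a minimum count of 10 and total of 15, scaling by TMM, the robust quasi-likelihood test, group as the only term, Benjamini-Hochberg adjustment over all genes tested. Positive log2 changes are higher in KO. SE is the absolute log2 change divided by the root of F. CPM uses TMM-scaled totals, and log2 levels of single libraries use a prior count of 0.5. The test was tried on simulated counts first. Alternatives were DESeq2 1.42.0 and those in the closing section. Replicates of a group were not copies: a chi-square of their counts over its degrees of freedom gave 4.82 for the KO pair and 9.08 for the WT pair.

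The members, gene lists, motif words and tests were chosen with earlier results of these data known. All 41 members are named. Values in every library were planned for the 4 members of each class with the smallest p and the 3 with the most counts, and are given for all. Of the further pathway genes, those with an unadjusted p under 0.01 are named. Of the planned DP markers, 1 is not reported here and is left out of the sum.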

Additional observations from a re-analysis of the deposited data

How the results depend on the processing

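The count of all genes called was 3 in the test as described and depended on the method: DESeq2 called 22, edgeR's likelihood ratio test 101, the fit with no filter on low counts 191, and the fits with 1 library left out 41 to 365. With the replicate number of the titles as a term (replicate block) it was 27, and 0 of the 41 genes were called. Nothing in the labels says that a number marks a shared litter or day, and with 2 libraries a group the correlation of same-numbered deviations was 0.10, so the numbers were not taken as pairs. RLE factors, library totals, the replicate block and a filter of 1 CPM in 2 libraries left the direction of all 41 genes as it was, and so did DESeq2 and the likelihood ratio test. With no filter Cdk2 turned from 0.0031 to -0.0016. Over the left-out libraries the median log2 change ran from -0.086 to 0.033 for G1 and G1/S genes (-0.086 without WT replicate 2, -0.083 without KO replicate 2), from -0.18 to 0.029 for S phase and from -0.24 to 0.048 for mitotic genes, and the number lower in KO from 4 to 6, from 2 to 14 and from 5 to 18. Single genes that changed sign over the left-out libraries, with their lowest and highest log2 change, were Ccnd2 (-0.083 to 1.83), Ccne2 (-0.10 to 0.13) and Cdk2 (-0.086 to 0.090) of the G1 and G1/S genes, Mcm2 (-0.17 to 0.0056), Mcm3 (-0.22 to 0.076), Mcm4 (-0.14 to 0.084), Mcm5 (-0.26 to 0.025), Mcm6 (-0.14 to 0.076), Mcm7 (-0.21 to 0.029), Pcna (-0.18 to 0.030), Rrm1 (-0.16 to 0.11), Rrm2 (-0.23 to 0.025), Tk1 (-0.17 to 0.064), Cdc45 (-0.24 to 0.00061) and Chek1 (-0.14 to 0.058) of the S phase genes, and Mki67 (-0.10 to 0.061), Top2a (-0.16 to 0.10), Ccna2 (-0.22 to 0.054), Cdk1 (-0.22 to 0.048), Bub1 (-0.13 to 0.16), Bub1b (-0.25 to 0.062), Aurkb (-0.27 to 0.055), Plk1 (-0.33 to 0.048), Cenpe (-0.21 to 0.032), Cenpf (-0.16 to 0.12), Birc5 (-0.21 to 0.00094), Tpx2 (-0.28 to 0.043) and Kif11 (-0.17 to 0.12) of the mitotic genes. Of these sign changes 24 came without WT replicate 1, 3 without WT replicate 2, 6 without KO replicate 1 and 2 without KO replicate 2. With 2 libraries a group, 1 library can set the sign of log2 changes of this size, and the cause of the high values in WT replicate 1 was not tested.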
